A study of Mus musculus with 8 samples.

Results

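The tags analysed here came from the loci of 4 IgLON genes, Opcml, Ntm, Lsamp and Negr1, in a map of RNA crosslinked to Ptbp2 in the embryonic mouse cortex. A tag is 1 sequenced fragment placed on the genome. A tag was a member where its midpoint lay on the gene's strand between fixed bounds in mm9: chromosome 9, 27590000 to 28790000, plus strand, for Opcml; chromosome 9, 28800000 to 29970000, minus strand, for Ntm; chromosome 16, 39980000 to 42185000, plus strand, for Lsamp; and chromosome 3, 156200000 to 156990000, plus strand, for Negr1. These bounds took in 24950 of 3098854 tags, or 0.805%. The genes were chosen by their tag counts in these same libraries so those totals are a description and carry no test. The 8 libraries came from 2 wild-type brains, brain 2 and brain 1, with 4 libraries each, all from the cortex of CD1 embryos at embryonic day 18.5. Neither input RNA nor another antibody, genotype or treatment was analysed here, so binding and transcript abundance cannot be told apart in a tag count, and in bulk tissue fewer cells of a type and less RNA per cell cannot be told apart.

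In HITS-CLIP, ultraviolet light bonds a protein to RNA in direct contact with it, and the RNA pieces that come down with an antibody to the protein are read by sequencing. Ptbp2, the polypyrimidine tract binding protein of neurons, recognises pyrimidine-rich RNA, often in introns near regulated exons, and is known as a repressor of exons used in mature neurons. IgLON proteins are cell surface molecules of the immunoglobulin superfamily, held in the membrane by a lipid anchor. They bind themselves and one another between neighbouring cells and are known for roles in neurite outgrowth, axon fasciculation and synapse formation. Their genes are very long and consist mostly of intron.

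All libraries held between 228424 and 545387 tags, with 1165859 in brain 2 and 1932995 in brain 1. Levels below are CPM, the tags of a gene per 1000000 tags of its library, and where genes are set side by side they are divided by length. The 4 genes were found on the same chromosomes in the RefSeq gene table at hand, where Opcml and Ntm lie close together on chromosome 9. That table describes another assembly (GRCm38.p6), so exons, introns and UTRs were not assigned to tags, and the cortex label was not checked against marker genes. The tags themselves drop at most of the bounds. On the gene's strand, the first 100 kb at the 5′ end held 962 tags in Opcml, 504 in Lsamp and 985 in Negr1, against 8, 23 and 17 in the 100 kb just outside. At the 3′ ends the last 100 kb inside held 171 tags for Opcml, 324 for Ntm, 195 for Lsamp and 185 for Negr1, against 13, 29, 62 and 18 outside. The exception was the 5′ end of Ntm, with 26 tags inside and 17 outside: the first 200 kb of its bounds were nearly empty. In the 10 kb just inside and just outside each bound, the counts were 27 and 2 (Opcml, 5′), 1 and 4 (Opcml, 3′), 1 and 4 (Ntm, 5′), 25 and 11 (Ntm, 3′), 33 and 1 (Lsamp, 5′), 44 and 5 (Lsamp, 3′), 9 and 1 (Negr1, 5′), and 4 and 0 (Negr1, 3′).

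RefSeq start regions of the 4 genes are shown because some blocks of tags in Opcml, Ntm and Lsamp open abruptly, and because Lsamp and Ntm have more than 1 listed start. Each is 250 bases before to 50 bases after a start, on the gene's strand, in GRCm38.p6. Capitals mark CTCTCT and TTCTCT, hexamers of the kind that polypyrimidine tract binding proteins recognise in RNA. All marked copies lie in the 250 bases before a listed start, which are not transcribed from that start. Whether they are transcribed from another start was not tested.
Opcml, chr9:27791049-27791348, plus strand: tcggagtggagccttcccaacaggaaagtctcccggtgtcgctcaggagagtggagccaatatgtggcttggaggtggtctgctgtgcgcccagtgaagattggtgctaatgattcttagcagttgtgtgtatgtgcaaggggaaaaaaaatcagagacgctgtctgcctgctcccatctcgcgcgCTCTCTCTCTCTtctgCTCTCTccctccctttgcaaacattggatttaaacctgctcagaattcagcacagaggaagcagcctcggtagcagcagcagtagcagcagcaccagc
Ntm, chr9:29412636-29412935, minus strand: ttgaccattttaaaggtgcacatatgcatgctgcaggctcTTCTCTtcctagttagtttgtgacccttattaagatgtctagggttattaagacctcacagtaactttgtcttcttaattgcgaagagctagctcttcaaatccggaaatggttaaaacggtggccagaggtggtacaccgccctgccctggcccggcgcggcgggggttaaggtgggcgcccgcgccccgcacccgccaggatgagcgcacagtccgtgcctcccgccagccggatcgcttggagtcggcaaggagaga
Lsamp, first listed start, chr16:39984114-39984413, plus strand: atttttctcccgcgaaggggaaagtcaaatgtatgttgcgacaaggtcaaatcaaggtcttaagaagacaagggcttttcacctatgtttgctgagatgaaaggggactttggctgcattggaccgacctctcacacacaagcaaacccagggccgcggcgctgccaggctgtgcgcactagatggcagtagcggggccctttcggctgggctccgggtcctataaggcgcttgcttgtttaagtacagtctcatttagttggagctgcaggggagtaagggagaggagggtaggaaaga
Lsamp, second listed start, chr16:41532576-41532875, plus strand: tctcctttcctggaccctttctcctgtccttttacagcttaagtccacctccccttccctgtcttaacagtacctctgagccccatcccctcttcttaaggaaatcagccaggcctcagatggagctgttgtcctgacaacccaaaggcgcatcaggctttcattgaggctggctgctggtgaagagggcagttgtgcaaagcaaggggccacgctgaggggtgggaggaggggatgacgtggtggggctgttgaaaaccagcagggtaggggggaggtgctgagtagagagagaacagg
Negr1, chr3:156561544-156561843, plus strand: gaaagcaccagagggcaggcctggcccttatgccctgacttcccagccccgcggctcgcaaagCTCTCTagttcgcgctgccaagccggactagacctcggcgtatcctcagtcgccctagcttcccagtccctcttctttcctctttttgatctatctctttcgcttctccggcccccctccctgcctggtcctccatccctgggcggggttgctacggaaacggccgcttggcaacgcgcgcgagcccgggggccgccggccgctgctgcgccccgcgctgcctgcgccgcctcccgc
The Opcml region held 5 overlapping or separate copies of CTCTCT on the gene's strand, the Negr1 region held 1, and the Ntm region shown held 1 copy of TTCTCT. The first Lsamp region held neither hexamer on either strand, and the second held them on the opposite strand alone, with 2 copies of CTCTCT and 1 of TTCTCT. Both hexamers can overlap. Over all 32851 listed start regions, 14.1% held CTCTCT and 15.02% held TTCTCT on the gene's strand, and 27.6% and 28.3% on either strand. A second Ntm region in the table, at chr9:29413403-29413702, held neither on the gene's strand and 1 TTCTCT on the opposite strand. Pyrimidines made up 62.7% of the Negr1 region and 44.0 to 51.0% of the other 5, against a median of 49.7% over all regions. The positions of these starts were not compared with tag positions, because the builds differ.

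Lsamp, the limbic system-associated membrane protein, drew the most tags of the 4 genes, with 9147 over its 2205 kb. Opcml, an opioid-binding adhesion protein, drew 7812, Ntm (neurotrimin) 4939 and Negr1 (neuronal growth regulator, also called Kilon) 3052. Per length the order was different: Opcml had 6.51 tags per kb, Ntm 4.22, Lsamp 4.15 and Negr1 3.86. The length of Ntm includes the nearly empty first 200 kb of its bounds, which lowers its value. In brain 2 Opcml held 155.8, 151.4, 179.9 and 202.8 CPM per 100 kb in libraries 1 to 4, against 240.8, 256.6, 221.7 and 215.1 in brain 1. Opcml stood above each of the other 3 genes in all 8 libraries, while Ntm and Lsamp, the neighbours in this order, changed places between libraries. In brain 2, libraries 3 and 4 gave Ntm 129.1 and 127.2 CPM per 100 kb, against 116.8 and 131.0 for Lsamp, a difference smaller than the spread between libraries. Negr1 stood above Ntm in libraries 1 and 2 of brain 2, at 100.8 and 102.3 CPM per 100 kb against 100.7 and 94.25.

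Brain 2 had fewer tags than brain 1 at Opcml, Ntm and Lsamp, per unit of depth, by 0.23 to 0.38 on the log2 scale, and Negr1 lay on the same side without passing the test. The brains are the biological replicates of the study, and this comparison asks how far the crosslinked signal of a gene repeats from one animal to another. Opcml held 1870, 1817, 2159 and 2434 CPM in libraries 1 to 4 of brain 2, against 2890, 3079, 2660 and 2581 CPM in brain 1. All libraries of brain 2 lay below all of brain 1, and within brain 2 libraries 3 and 4 were the higher pair. Ntm held 1178, 1103, 1511 and 1488 CPM in brain 2, against 1773, 1861, 1777 and 1637 CPM in brain 1. Again the groups did not overlap, and libraries 3 and 4 were the higher pair of brain 2. Lsamp held 2502, 2415, 2576 and 2889 CPM in brain 2, against 3207, 3277, 3233 and 2998 CPM in brain 1. Here library 4 was the highest of brain 2 and also library 4 the lowest of brain 1, and the gap between them was narrow. Negr1 held 796.6, 808.1, 903.6 and 976.3 CPM in brain 2, against 1142, 1089, 976.7 and 1003 CPM in brain 1, so the groups came within less than 1 CPM of touching.

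**Figure D1:**
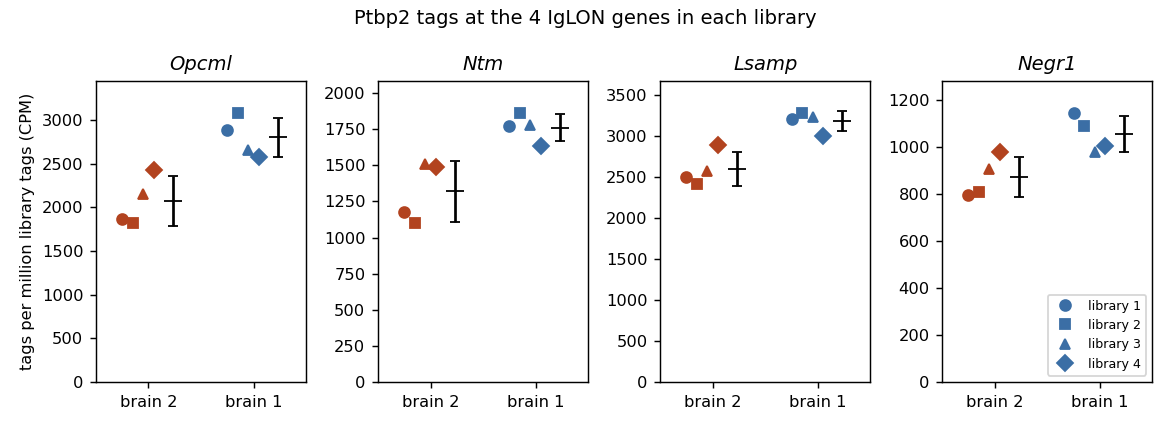
CPM (linear axis from 0) at Opcml, Ntm, Lsamp and Negr1 in the 4 libraries of brain 2 (red, left) and of brain 1 (blue, right), with symbols for libraries 1 to 4 and, in black, the mean and SD of each brain. Opcml, for example, lies between 1817 and 2434 CPM in brain 2, below the 2581 to 3079 CPM of brain 1.

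In a limma voom fit over 9926 features (the 4 loci and all 100 kb windows outside them, per strand), Opcml fell in brain 2 by a log2 change of -0.38 ± 0.05 (SE, adjusted p = 4.47e-08). Mean levels of Opcml were 2070 ± 286 CPM for brain 2 and 2802 ± 226 CPM for brain 1 (SD over 4 libraries). Ntm changed by -0.36 ± 0.06 (limma voom, adjusted p = 8.89e-05), with 1320 ± 210 CPM in brain 2 and 1762 ± 92.6 in brain 1. Lsamp changed by -0.23 ± 0.04 (limma voom, adjusted p = 0.000208), with 2596 ± 207 CPM in brain 2 and 3179 ± 124 in brain 1. For Negr1 the log2 change was -0.21 ± 0.07, with a 95% interval of -0.35 to -0.07, and the adjusted p was 0.174 (limma voom, unadjusted p = 0.00421). Its means were 871 ± 84.9 CPM in brain 2 and 1053 ± 76.6 in brain 1. So 3 of the 4 loci passed an adjusted p of 0.05 as lower in brain 2 and 0 as higher, where 0.322% of all features passed as lower and 0.312% as higher. All 4 loci had every brain 2 library below every brain 1 library, as did 3.36% of all features, and the two-sided exact permutation p on CPM was 0.029 for each, the smallest that 4 against 4 libraries can give. The loci span 790 to 2205 kb and the other features 100 kb each, so these shares are not a rate for features of like size. Whether the 4 changes differ from one another was not tested. The 4 libraries of a brain share 1 animal, so these p-values measure spread between libraries, which is technical, and n is 1 animal on each side. Depth moved with the result, at 228424 to 340852 tags in libraries of brain 2 and 458293 to 545387 in those of brain 1, and its part in the result was not tested. The genes were chosen by tag counts in these same libraries, to which brain 1 gave more tags. The part of that choice in the difference was not tested either. When the 2 libraries with the same title letter in each brain were added together, Opcml still passed (adjusted p = 0.00531) and Ntm and Lsamp did not (adjusted p = 0.0668 and 0.179, limma voom), and Lsamp also missed the threshold with limma-trend (adjusted p = 0.0509). Without the count filter the log2 changes were larger, at -0.59, -0.56, -0.44 and -0.42 for Opcml, Ntm, Lsamp and Negr1, and all 4 passed (limma voom).

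The lower level in brain 2 was seen along most of each gene. Of 52 windows of 100 kb tested in the loci, 48 had a log2 change below 0: 12 of 12 in Opcml, 10 of 10 in Ntm, 20 of 22 in Lsamp and 6 of 8 in Negr1. Over all 9975 windows tested, 48.8% lay below 0, and over the 6583 windows outside the loci with tag totals in the same range as those of the loci, 55.2% did. The windows in the loci hold the tags already tested by locus, and windows of 1 transcript are not independent. Their counts describe where the difference lies and are no further test of it. The median log2 change was -0.38 in Opcml, -0.39 in Ntm, -0.27 in Lsamp and -0.20 in Negr1, against -0.04 in those windows of like totals and 0.01 in all windows. Singly, 2 of the 52 windows passed as lower in brain 2 and 0 as higher, where 0.321% of all windows passed as lower and 0.311% as higher. Both lay in Opcml. The first, from 27700001 to 27800000, held 18, 33, 46 and 16 tags in libraries 1 to 4 of brain 2, against 90, 93, 69 and 64 in brain 1, a log2 change of -0.72 ± 0.19 (limma voom, adjusted p = 0.0423). Per unit of depth all 4 libraries of brain 2 lay below those of brain 1. The second, from 28600001 to 28700000, changed by -0.76 ± 0.20 (limma voom, adjusted p = 0.0422). It held 15, 32, 20 and 28 tags in brain 2, against 92, 67, 64 and 52 in brain 1, and per unit of depth the brains overlapped. Neither call was firm: the count of windows called ran from 0 to 3 as single libraries were left out, and was 0 without library 1, 2 or 3 of brain 1 or library 1 of brain 2. Without adjustment, 23 of the 52 windows and 1210 of all 9975 had a p under 0.05. All brain 2 libraries lay below all brain 1 libraries in 11 of the 52, against 3.41% of all windows.

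**Figure D2:**
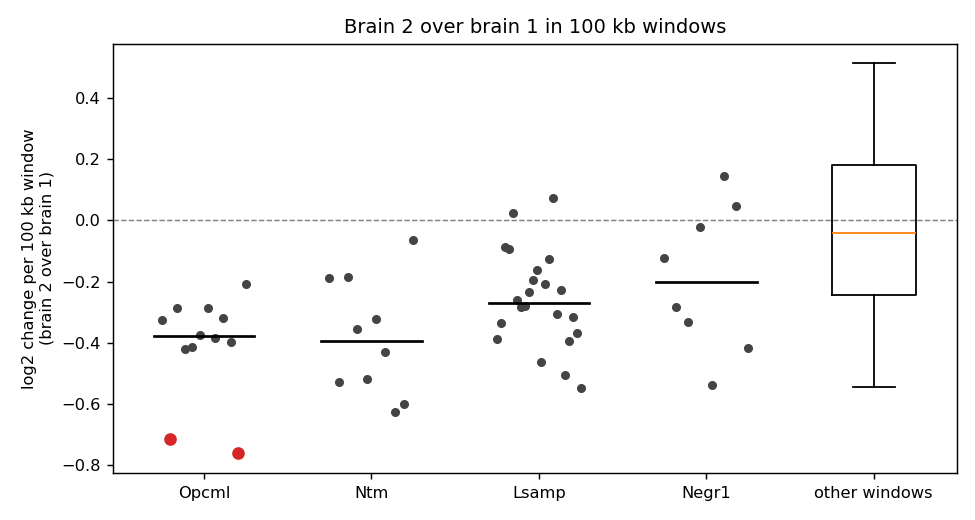
Log2 change of brain 2 over brain 1 in each 100 kb window of the 4 loci (points, in order of position within each gene, red where the adjusted p was below 0.05, line at the median) and in 6583 other windows of like tag totals (box from the lower to the upper quartile with the median, whiskers from the 5th to the 95th percentile). In the loci, 48 of 52 windows lie below 0, and the 2 red points are both in Opcml.

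Windows of 10 kb, which resolve position better and hold fewer tags, gave no call in the loci in the main setting. Of 107 tested there, 75 had a log2 change below 0, with a median of -0.22, and 0 passed (limma voom), although 3 had an unadjusted p under 0.05. Over all 3757 windows of this size, 50.4% had a change below 0, and 1.2% passed, 0.0266% as lower and 1.17% as higher in brain 2. All brain 2 libraries lay below all brain 1 libraries in 6 of the 107, against 2.82% of all. With repeated positions counted once per library, 1 of 78 in the loci passed as lower, the only such call among all 2346 tested.

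In Opcml, Ntm and Lsamp the tags lay in blocks, several of which opened at a sharp step, while Negr1 was fullest in its first bins. Negr1 too was sparse at its 5′ bound, with 9 tags in the first 10 kb and a tagless stretch of 11.4 kb from 13.15 kb. A rise inside the first bin of a locus cannot count as a step under the rule below. Distances are from the 5′ bound of the locus, in bins of 50 kb. A step is a bin with at least 100 tags and at least 2.5 times the bin before it, a definition set after the profiles had been seen, and 8 were found with the brains pooled. Taken by brain, the rise was at least 2.5-fold in brain 1 at all 8 and in brain 2 at 6, the exceptions being 1.85-fold in Lsamp at 1000 kb and 2.42-fold in Negr1 at 600 kb. In Opcml the bin from 200 to 250 kb held 36 tags of brain 2 and 96 of brain 1, and the next bin held 310 of brain 2 and 654 of brain 1. In bins of 10 kb this rise was confined to a short stretch, with 28, 60 and 277 tags in those that start at 230, 240 and 250 kb. A second step in Opcml, at 600 kb, took the count to 465 tags against 122 in the bin before it, and in bins of 10 kb it lay at 620 kb, where 138 tags followed 13. After this second step the count per 50 kb bin declined from bin to bin over the next 5 bins, through 421, 368, 316 and 254 to 133.

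Ntm was nearly silent over the first 200 kb of its bounds, with 54 tags in 4 bins, which lie upstream of where its tags begin. Its bin from 150 to 200 kb held 5 tags of brain 2 and 6 of brain 1, and the bin from 200 to 250 kb held 161 of brain 2 and 300 of brain 1. From there the count declined through 339, 303, 218 and 138 tags to 87, and then rose to 331 in the bin that starts at 500 kb. Another, broader rise followed at 750 kb, where 432 tags stood after 192, short of the 2.5-fold set for a step. The fullest bin of Ntm, from 800 to 850 kb, held 480 tags, or 9.72% of the gene's total.

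Lsamp had 3 steps. The tallest was at 1550 kb, where 443 tags followed 52, made up of 144 after 24 in brain 2 and 299 after 28 in brain 1. The 5 bins of 10 kb before it held 21, 9, 7, 8 and 7 tags, and the first 3 after it held 54, 129 and 116. The next highest was at 1250 kb, with 345 tags after 121, and the last at 1000 kb, with 171 after 68. The stretch from 1550 to 1750 kb held 443, 476, 364 and 455 tags per bin, the fullest part of the gene. Between 550 and 1250 kb the bins held between 68 and 171 tags. All 221 bins of 10 kb in Lsamp held at least 1 tag.

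Negr1 differed in shape, with most tags near its 5′ end. The first 3 bins held 486, 499 and 493 tags, and 76.9% of the gene's tags lay in the upstream part that makes up 50% of its length, against 62.8% in Opcml, 47.6% in Lsamp and 42.9% in Ntm. The only step, at 600 kb, was small, with 142 tags after 51. This upstream share was 76.6 ± 4.22% for brain 2 and 77.1 ± 2.01% for brain 1 (SD, n = 4), a difference smaller than the spread between libraries. In Opcml it was 62.4 ± 2.57% in brain 2 and 62.98 ± 0.83% in brain 1, in Ntm 42.8 ± 2.80% and 42.6 ± 2.18%, and in Lsamp 49.1 ± 2.00% and 46.9 ± 0.89%. The upstream part of Ntm includes the nearly empty first 200 kb of its bounds, which lowers its share. Over bins of 10 kb the tag counts of the brains had a Pearson correlation of 0.93 in Opcml (120 bins), 0.92 in Ntm (117 bins), 0.90 in Lsamp (221 bins) and 0.95 in Negr1 (79 bins). These are descriptions across bins of the same libraries, which share the transcript's own density and are not independent replicates.

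**Figure D3:**
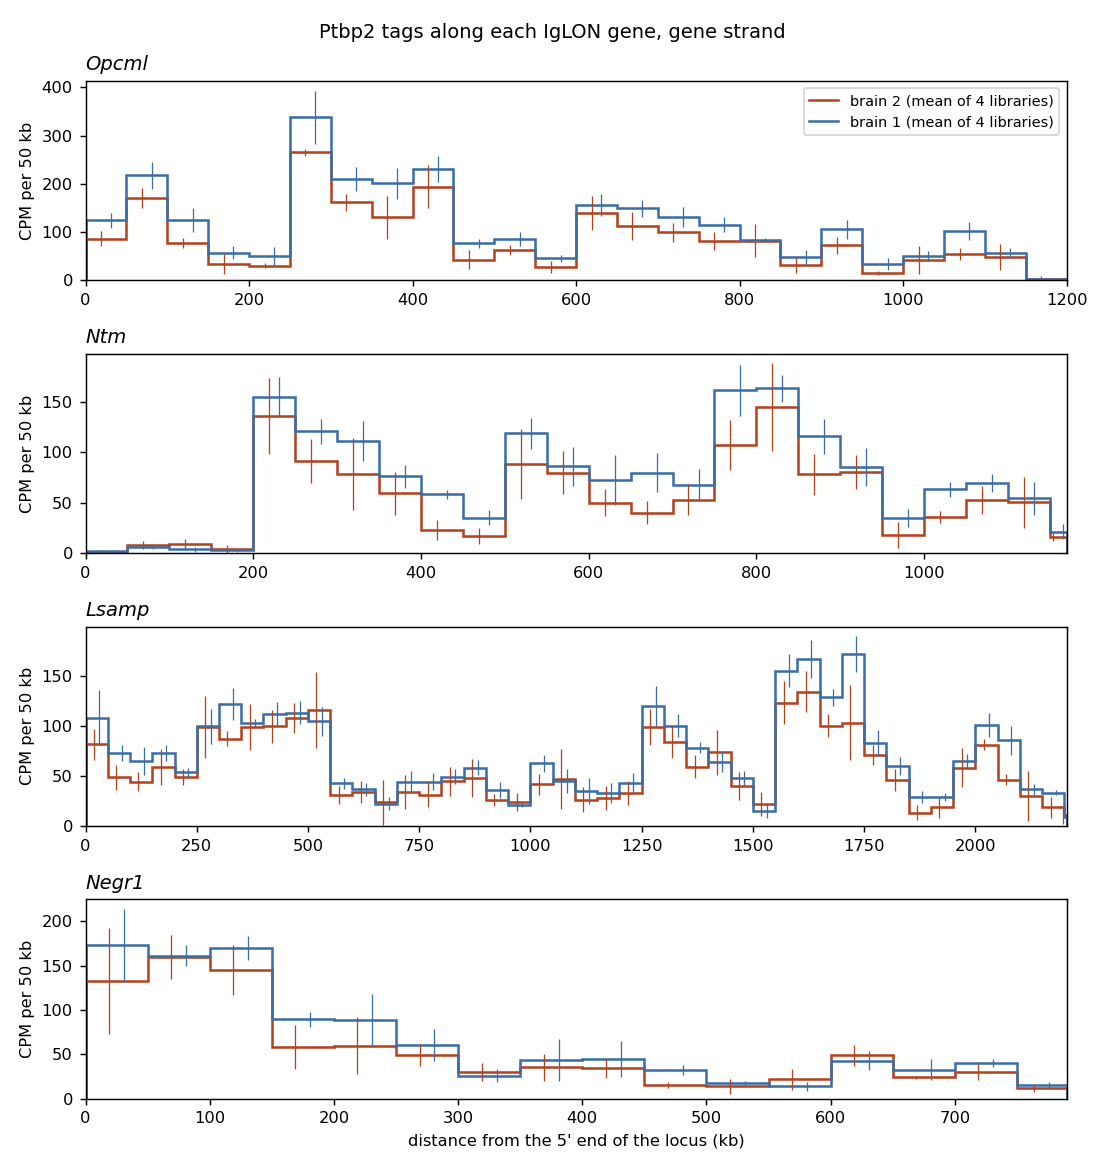
Mean CPM per 50 kb bin on the gene's strand, against distance from the 5′ bound of each locus in kb, for brain 2 (red) and brain 1 (blue), with bars for the SD over 4 libraries. The blocks of Opcml (from 250 kb), Ntm (from 200 kb) and Lsamp (from 1550 kb) open at the same bin in both brains, and Negr1 is fullest over its first 150 kb.

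Clusters are runs of overlapping tags on 1 strand with all libraries pooled, and their height is the largest number of tags over 1 base. With a height of 10 or more there were 113 in Opcml, 102 in Lsamp, 38 in Ntm and 33 in Negr1, together 1.25% of the 22803 of the whole map. Per length this was 9.42 clusters per 100 kb in Opcml, 4.63 in Lsamp, 4.18 in Negr1 and 3.25 in Ntm. Clusters held 24.6% of the tags in Opcml, 12.0% in Ntm, 20.4% in Lsamp and 25.3% in Negr1, against 15.7% of tags outside the loci. Ntm had the lowest share, and its tallest cluster held 27 tags, against 70 in Opcml, 57 in Lsamp and 98 in Negr1. Most clusters were low, with a median height of 13 in Opcml and Ntm, 14 in Lsamp and 16 in Negr1. Their median width was 46 to 52 nt, against 42 nt elsewhere. Of the 286 clusters 281 held tags of both brains, against 22316 of 22517 outside the loci. The other 5, all in Opcml, held tags of brain 1 alone, the brain with more tags. This difference was not tested.

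The tallest cluster of the family lay in Negr1, 33.2 kb from the 5′ bound, at chr3:156233134-156233189, with 4, 6, 13 and 8 tags in libraries 1 to 4 of brain 2 and 15, 20, 16 and 16 in brain 1. Every library contributed, and the fullest single position held 30.6% of the 98 tags. Next came a cluster 71.0 kb from the bound, at chr3:156270890-156271003, with 33 tags of brain 2 and 64 of brain 1 and a height of 91. Another, at chr3:156471971-156472010, had a height of 65, with 66.2% of its tags at 1 position. The level of the tallest was 26.6 ± 11.7 CPM for brain 2 and 35.0 ± 6.63 CPM for brain 1 (SD, n = 4), so the brains overlapped.

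In Opcml the tallest cluster lay just after the first step, 269.6 kb from the bound, at chr9:27859617-27859670. It held 9, 4, 10 and 5 tags in brain 2 and 15, 6, 10 and 11 in brain 1, or 24.3 ± 9.42 CPM for brain 2 and 21.4 ± 6.07 CPM for brain 1 (SD, n = 4). Those levels overlap between the brains. Those ranked 3 and 4 lay within the same block, at 255.1 and 277.3 kb, and rank 4 was a narrow stack with 85.0% of its 40 tags at 1 position. The second tallest, at chr9:28490121-28490161, stood apart at 900.1 kb and held 4, 2, 5 and 3 tags in brain 2 and 12, 8, 10 and 8 in brain 1. Its level was 12.2 ± 4.17 CPM for brain 2 and 19.6 ± 2.68 CPM for brain 1 (SD, n = 4), and here all libraries of brain 2 lay below those of brain 1.

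In Lsamp the tallest cluster, at chr16:40401291-40401334, lay 421.3 kb from the bound, in the upstream block. It held 3, 9, 7 and 6 tags in brain 2 and 7, 6, 12 and 7 in brain 1, spread over 20 distinct positions with at most 14.0% at any of them. Those ranked 4 and 5, with heights of 36 and 33, lay at 1605 and 1733 kb, inside the block that opens at 1550 kb. In Ntm the tallest, at chr9:29156050-29156078 on the minus strand, lay 813.9 kb from the bound in the fullest bin of the gene. It held 2, 2, 0 and 1 tags in brain 2 and 5, 4, 10 and 3 in brain 1, with 74.1% at 1 position. The next 4 in Ntm had heights of 20 to 25. Differences between the brains were not tested for single clusters.

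**Figure D4:**
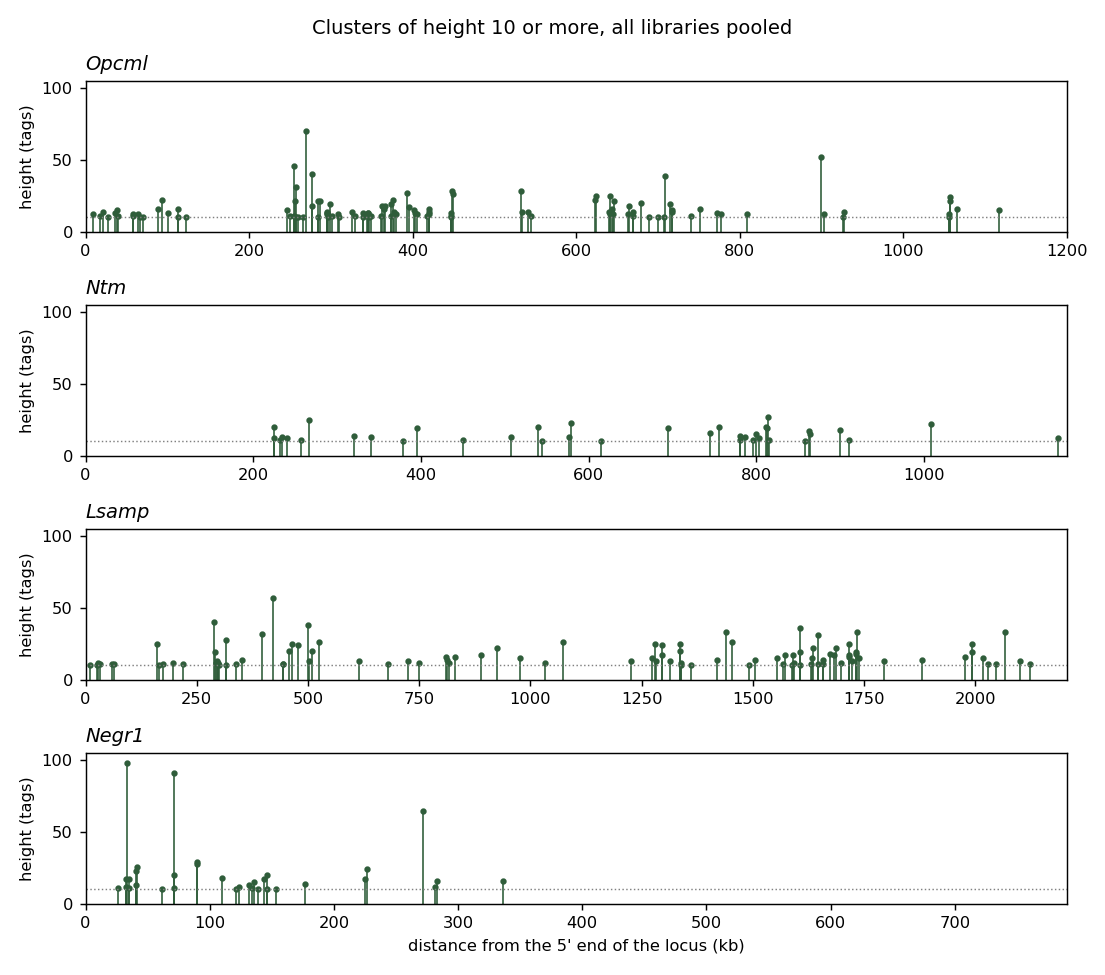
Height of each cluster of height 10 or more (tags over 1 base, all libraries pooled, linear axis; dotted line at 10) against distance from the 5′ bound in kb. Negr1 has its 2 tallest clusters, 98 and 91 tags, within its first 100 kb, Opcml its tallest just past 250 kb, and Ntm none above 27.

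Clusters called in each brain alone, at a height of 5 or more, were compared by any overlap. The same height was used for 1165859 tags of brain 2 and 1932995 of brain 1, so the calls were made at unlike depth. Of 225 called in brain 2 within the loci, 159 overlapped one of brain 1 (70.7%, exact 95% interval 64.3 to 76.5%), against 66.7% of those outside the loci (66.0 to 67.3%). Of 611 called in brain 1 within the loci, 157 overlapped one of brain 2 (25.7%, 22.3 to 29.4%), against 33.1% outside (32.6 to 33.5%). The intervals cover counting error only and treat clusters as independent, which those of 1 transcript are not. The lower total of brain 2 at these genes, given above, moves with the second share, and its part in it was not tested.

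Few tags within the bounds lay on the other strand. Since members were taken by strand, these shares are a description with no test. Within the bounds, the gene's strand held 96.6% of tags in Opcml (exact 95% interval 96.2 to 97.0%), 97.7% in Ntm (97.3 to 98.1%), 94.7% in Lsamp (94.2 to 95.1%) and 93.6% in Negr1 (92.8 to 94.5%). For Opcml and Ntm, which face each other on opposite strands, the tags thus changed strand between their bounds. The share was lower on average in brain 2 in each gene. For Lsamp it was 92.9 ± 0.84% for brain 2 and 95.6 ± 0.97% for brain 1 (SD, n = 4), with 55, 68, 67 and 42 tags on the other strand in brain 2 and 73, 75, 52 and 84 in brain 1. These counts are not divided by depth, which was lower in every library of brain 2 than in any of brain 1. For Opcml it was 95.1 ± 1.76% in brain 2 and 97.1 ± 0.63% in brain 1, and for Ntm 96.7 ± 1.35% and 98.1 ± 0.28% in the same order. For Negr1 the values were 92.5 ± 2.39% in brain 2 and 94.2 ± 0.76% in brain 1.

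Clusters of 1 strand that followed each other within 20 kb were joined, which gave 13895 groups in the whole map. The Opcml block after its first step was the largest group of the family, from 27836285 to 28010135, with 51 clusters and rank 7 by number of clusters. It held 14.3 tags per kb, against 28.4, 12.5 and 16.4 tags per kb in the 3 largest groups outside the family, which had 225, 93 and 77 clusters. Per length its 29.3 clusters per 100 kb stood between the 51.2 of the first of those, at chr2:6461055-6900698 (minus strand), and the 24.99 of the last, at chr11:36386301-36694373 (minus strand). The largest group had 19 clusters in Lsamp, 15 in Negr1 and 10 in Ntm, and 19 of 35 groups in Lsamp were a single cluster. The Opcml block held 670 ± 78.5 CPM for brain 2 and 883 ± 117 CPM for brain 1 (SD, n = 4). All 3 outside groups also had a lower mean in brain 2. That at chr16:6809381-7201718 (plus strand) had all brain 2 libraries below all of brain 1, at 1309 ± 184 CPM in brain 2 and 1746 ± 152 in brain 1. In the other 2 the brains overlapped. The chr2 group held 3592 ± 468 CPM in brain 2 and 4290 ± 304 in brain 1, and the chr11 group 1533 ± 197 and 1699 ± 110. Whether these groups differ from the IgLON genes in their change was not tested.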

How the data were processed

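Ptbp2 HITS-CLIP tags of 8 libraries, 4 of brain 2 and 4 of brain 1, came from 1 deposited list of genome positions, with a library code in each tag's name that matched 1 sample title. The score column, as deposited by the authors, held 0 throughout and was not used. Bowtie (no version) and the builds mm8 and mm9 appear in the submitters' processing notes. Tags on chromosome 1 extend to 197194446, beyond its end in mm8, and positions are therefore given in mm9 and are 1-based. Reads began with 4 degenerate bases and a G, per the labels' protocols. Treatment of repeated and multiply mapped reads: not given in the sources used here. Repeated rows were kept.

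Tags were counted by midpoint. The members and lists were chosen with earlier results of these data known. A limma voom fit (limma 3.58.1, R 4.3.3) compared the brains over features that reached, in at least 4 libraries, the CPM of 10 tags at median depth, and at least 15 tags summed. Library scaling used trimmed log ratios (30% by ratio, 5% by level), and p-values were Benjamini-Hochberg adjusted over all features (threshold 0.05). The fit was tested on simulated 100 kb windows. It called 24 of 50 windows set to 0.5-fold in brain 2, 44 of 50 set to 2-fold, and 6 of 9941 left unchanged. Changes as small as those of the loci were not simulated. Other values were compared by two-sided exact permutation tests in Python 3.11.15; one planned for the strand shares is not reported, since members were taken by strand. Intervals on shares are Clopper-Pearson at 95% and cover counting error only. The 95% interval on the log2 change of Negr1 is built from the SE of the fit and covers spread between libraries. Libraries of 1 brain differed by more than sampling noise (chi-square per degree of freedom 1.12 to 1.53). The sites named are the loci, the 5 tallest clusters of each, windows that passed and the 3 largest groups elsewhere. Start regions are from RefSeq (4 of 4 genes matched). Iglon5 was not analysed here.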

Additional observations from a re-analysis of the deposited data

Results flagged for a closer look

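Among 56 sets of 4 libraries of one brain (the CPM and strand share of each gene and the CPM of its 5 tallest clusters), 4 had a library far from the other 3, and chance gives about 1 in 20. All 4 were single clusters. The third tallest cluster of Opcml held 32.7 CPM in library 2 of brain 1. The second tallest of Ntm held 14.7 CPM in library 3 of brain 2. The tallest of Lsamp held 26.1 CPM in library 3 of brain 1. The third tallest of Negr1 held 26.3 CPM in library 4 of brain 2.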

How the results depend on the processing

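The changes of all 4 genes kept their sign in each of the alternatives run, and Opcml kept its call in each. Leaving out single libraries gave log2 changes of -0.45 to -0.32 for Opcml, -0.44 to -0.29 for Ntm, -0.28 to -0.19 for Lsamp and -0.26 to -0.15 for Negr1. With libraries of a title letter summed, an alternative added after the data were seen, Ntm (-0.36) and Lsamp (-0.24) no longer passed, and neither did Lsamp with limma-trend (-0.22). Without the count filter, in a fit of 52037 features, the changes were over 1.5 times as large, at -0.59 for Opcml, -0.56 for Ntm, -0.44 for Lsamp and -0.42 for Negr1, which then passed (adjusted p = 0.0123); the cause was not tested. In that fit the count of features called was 55, against 17 with limma-trend, 14 with letters summed and 63 in the main setting. Total-tag scaling moved the median of all features to -0.06 and gave 38 calls lower and 12 higher, where the main setting gave 32 and 31. The library numbers did not pair the brains (correlations of same-numbered libraries -0.08 to -0.05 over 783 windows), and with the replicate block Opcml changed by -0.38 and no locus changed its call. The count of 100 kb windows called in the loci, 2, was 4 with repeated positions counted once, 0 with limma-trend, letters summed or 10 kb windows, and 0 to 3 without single libraries. The difference in CPM kept its sign without single libraries, at -854 to -640 for Opcml, -506 to -370 for Ntm, -681 to -523 for Lsamp and -217 to -152 for Negr1, where 3 against 4 libraries cannot give an exact permutation p below 0.057. With repeated positions counted once it was -160 for Negr1 (exact permutation p = 0.086). Narrowing the bounds by 50 kb took Negr1 to a mean of 794 CPM, against 962, since many of its tags lie in the first 50 kb. Cluster numbers followed the height: at 5 or more they were 340 in Opcml, 221 in Ntm, 350 in Lsamp and 126 in Negr1, at 20 or more 22, 8, 27 and 10, and with repeated positions counted once 64, 21, 65 and 21. Without single libraries they were 71 to 101 in Opcml, the lowest without library 1 of brain 1, 26 to 36 in Ntm, 78 to 97 in Lsamp and 23 to 30 in Negr1. Depth limits what single clusters can show, since 67 of 286 had a height of 20 or more.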

Other observations

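Tags at the IgLON genes differed a little in form from the rest of the map. Repeated positions made up 15.1% of tags in Opcml, 13.7% in Ntm, 15.5% in Lsamp and 16.5% in Negr1, against 11.5% outside the loci. Tags of the full 30 nt made up 52.0%, 50.7%, 49.3% and 51.6% in the same order, against 43.0% outside. Neither difference was tested. The 4 genes together took 0.635, 0.614, 0.715 and 0.779% of libraries 1 to 4 of brain 2, against 0.901, 0.931, 0.865 and 0.822% of those of brain 1.

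The longest stretch without a tag on the gene's strand was 12.7 kb in Lsamp and 11.4 kb in Negr1, where it began 13.15 kb from the 5′ bound. In Opcml it was 21.9 kb and lay past the last bin of 10 kb with 5 or more tags, which ended 1150 kb from the 5′ bound. In Ntm it was 24.8 kb and lay before the step at 200 kb.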
